A study of Mus musculus with 24 samples.

Results

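The proteins of the mitochondrial ribosome are described here by their transcripts in injured and sham-operated mouse hearts. A gene was a member if its name on the array was Mrpl or Mrps followed by a number, which 75 of 27962 gene names met. Each was read by 1 probe, the one with the highest mean signal in the heart channel, and was kept if that probe was well above background on every array of at least 1 group. All 75 members were kept, among 11447 genes in all. On all 24 arrays, 51 members were well above background, and the other members were so on at least 16 arrays. The rule for members used names and brightness and no difference between groups, but it was chosen with earlier results of these data known.

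The mitochondrial ribosome translates the few proteins encoded by mitochondrial DNA, all of them core subunits of the respiratory chain and the ATP synthase. Its RNAs come from mitochondrial DNA, while all of its proteins are encoded in the nucleus, made in the cytosol and imported. Some of the proteins descend from those of bacterial ribosomes and others are found only in mitochondria. Heart muscle, which works almost entirely on oxidative phosphorylation, is rich in them. Of the members, 48 belong to the large subunit and 26 to the small one, and 46 have a bacterial homolog while 28 do not. Mrps30 and Mrps18a carry small-subunit names but sit in the large subunit. Mrps36, which takes neither role here, encodes a protein now known as a component of the 2-oxoglutarate dehydrogenase complex.

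The study compared wild-type mice with mice labelled MuRF1 Tg+, which carry a transgene for the muscle ubiquitin ligase MuRF1 (gene Trim63). The sources used here do not give the promoter that drives the transgene, or its cell type. Mice of both genotypes were 12 to 16 weeks old and underwent a sham operation or I/R, short for ischemia and reperfusion: the left anterior descending artery of the heart was tied and blood flow was then let back. Each heart gave a piece from above the tie and a piece from below it, or from the matching sites after sham surgery, so that 12 hearts gave 8 groups of 3 arrays. Heart RNA carried Cy5 and was hybridised against 1 Cy3-labelled pool of RNA from whole day 1 pups. Every level below is a log2 ratio of heart to pup pool, normalised within the array, and every difference is between 2 groups of such ratios. Dye bias cannot be separated from a level. For the same probe it cancels in a difference if it is the same on all arrays, but not if it changes with signal. Signal differed between I/R and sham arrays, and the part of such a bias was not tested.

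Between 34.6% and 43.3% of heart-channel spots were well above background on sham arrays, against 9.90% to 38.3% on I/R arrays. Under 25% were so on 5 I/R arrays, called weak arrays below: replicates 1 and 2 of wild type I/R above, replicate 1 of wild type I/R below, and replicates 2 and 3 of MuRF1 Tg+ I/R below. Precision is limited by having 3 arrays a group. Heart muscle markers such as Myh6 and Tnnt2 averaged a log2 ratio of 3.04 to 3.61 on sham arrays and 2.44 to 3.51 on I/R arrays. The 4 neutrophil markers kept of 7 listed averaged -2.27 to -1.98 on sham arrays and -1.28 to 0.53 on I/R arrays, with no overlap, and those of monocytes and macrophages (8 of 9 kept) -0.53 to -0.21 and -0.16 to 0.40. Fibroblast markers (8 of 8) ran from -2.88 to -2.35 and from -3.05 to -0.94, and endothelial markers (7 of 7) from 0.32 to 0.80 and from -0.08 to 0.85. Atrial markers (4 of 5) ran from -1.93 to 1.88 on sham arrays and from -1.67 to 4.14 on I/R arrays, and red blood cell markers (3 of 4) from -2.69 to -1.65 and from -3.54 to -1.51. The part of any of these cell types in the results below was not tested. In such pieces, fewer heart muscle cells and less of a transcript per cell cannot be told apart. The probe for Trim63 did not separate the genotypes, with means of 2.34 and 2.35 in the wild-type sham groups and 2.36 and 2.28 in the MuRF1 Tg+ sham groups. Whether the transgene's transcript holds that probe's sequence is not given, so genotype is by label.

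Sequences of array probes are shown because later results turn on them, and those of promoters for the motifs counted after them. Of Mrpl3, a large-subunit protein near the peptidyl transferase centre, 3 probes were well above background in some group. The brightest is the gene's probe here. In the array's own coordinates, the second starts at -179 bases from it and the third at -13257 bases, and the third spans 7311 bases of genome, so it crosses an intron. Shown are the first 30 bases of the brightest and the second and all 60 bases of the third:

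Mrpl3 brightest probe: cgcctgtcatttataggtgtcattctttag

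Mrpl3 second probe: agatcaggaatgggaatcgcattccctcgg

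Mrpl3 intron-spanning probe: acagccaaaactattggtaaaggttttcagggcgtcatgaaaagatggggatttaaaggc

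The next stretches of 30 bases come from the probes of all 5 genes that passed the threshold as higher in MuRF1 Tg+ hearts below the tie. The letters of the poly(A) signal (AATAAA or ATTAAA) are in capitals where the probe holds them. The probes of Mrpl33 and Mrps34 hold neither.

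Mrpl23: cagtggttctgacaagcccaAATAAAaatt

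Mrpl52: tactgagaagcccacttccgaatcAATAAA

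Mrpl20: aaagattgtataAATAAAgcctttgcagtg

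Mrpl33: ggacagagccgaaagagtccttcacagaga

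Mrps34: atgacaggctgcttggtgtcattttcaggc

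Of the genes that were lower in MuRF1 Tg+ hearts below the tie, 3 have a probe with these letters.

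Mrpl34: caagacggggtcATTAAAacacagacacca

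Mrps25: ggtatgagtttatgaggcaaAATAAAgcag

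Mrps30: cactttctgctaAATAAAccaagagaagac

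The probes of the 3 genes that were lower in every comparison of I/R with sham hold neither form.

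Mrps9: tctaatttactttcccatcacacaggacag

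Mrpl18: gcttcagagcaataatgtgactgaaaactt

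Mrpl19: agccatggattgagtttgatatgatgagag

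Promoters of 66 members were found in a RefSeq table (build GRCm38.p6) that holds the bases just before and after the start of each gene. They were searched on both strands for the motifs of NRF1 (GCGCA and GCGC with any 1 base between them) and of the ETS family, to which GABP belongs (CCGGAAG), both textbook regulators of nuclear genes for mitochondria, and for YY1 (AAGATGGCG) and the E-box (CACGTG). Members that passed the threshold as lower in at least 2 comparisons of I/R with sham and hold an NRF1 or ETS motif before the start site are shown with the 60 bases around it, the motif in capitals. Mrps9 holds the NRF1 motif and Mrpl21 the ETS motif too, but not wholly before the start site, so neither is shown.

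Mrpl39, NRF1 motif, chr16:84735335-84735394, minus strand: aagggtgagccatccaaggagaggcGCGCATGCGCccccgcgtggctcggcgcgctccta

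Mrpl3, ETS motif, chr9:105053208-105053267, plus strand: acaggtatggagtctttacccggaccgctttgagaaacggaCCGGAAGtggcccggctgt

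Mrpl27, ETS motif, chr11:94653710-94653769, plus strand: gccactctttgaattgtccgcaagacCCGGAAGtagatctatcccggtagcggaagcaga

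Mrpl18, ETS motif, chr17:12916282-12916341, minus strand: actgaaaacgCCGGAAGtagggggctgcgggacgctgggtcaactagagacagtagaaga

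The ETS motif was in 24 of the 66 member promoters (36.4%), against 9.93% of the 27025 genes in the table. NRF1's motif was in 12 members (18.2%, against 5.19%), YY1's in 7 (10.6%, against 1.64%) and the E-box in 5 (7.58%, against 8.09%). Among the members in the table, 37 were lower past the threshold in at least 1 comparison of I/R with sham, and 13 of these (35.1%) held the ETS motif, as did 9 (36.0%) of the 25 that passed in none. NRF1's motif was in 8 of the 37 (21.6%) and in 4 of the 25 (16.0%). These are matches of letters, and no binding was measured.

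In sham hearts, members stood above the pup reference almost without exception. The mean over the 12 sham arrays was above 0 for 74 of 75 members, against 54.8% of all kept genes, and the median member's ratio was 0.82, against 0.05 over all kept genes. The range of member means was -0.12, for Mrpl52, to 2.19. Replicates lay close together: the median standard deviation (SD) within a sham group was 0.0741, and within an I/R group 0.214. On single arrays the median member ratio was 0.77 to 0.88 after sham surgery and 0.16 to 0.88 after I/R.

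**Figure D1:**
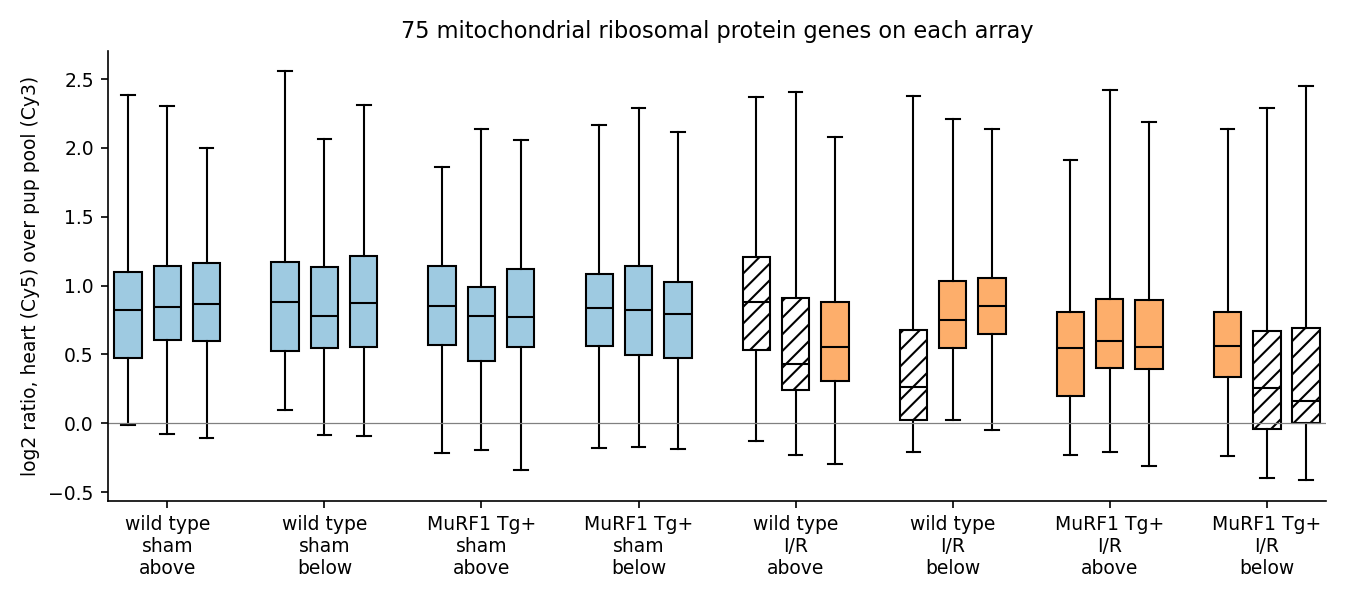
Log2 ratio of heart to pup pool (vertical axis) of the 75 members on each of the 24 arrays, 3 per group; boxes show quartiles and median, whiskers the lowest and highest member, blue is sham, orange I/R, and hatched boxes are the 5 weak arrays. Sham medians lie between 0.77 and 0.88, and most I/R medians lie below them.

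After I/R, more members fell than rose in each genotype and piece. Differences were tested with limma on 1 fit of all 24 arrays, with p-values adjusted over all genes (Benjamini-Hochberg) and a threshold of 0.05. In the piece above the tie of wild-type hearts, 12 members fell and 1 rose (17.3% of members, against 13.3% of all genes tested, 5.98% higher and 7.30% lower). There the median member difference was -0.18, against 0.00 over all genes, and 55 of 75 members were lower by value. Below the tie of wild-type hearts, 3 members fell and none rose (4.00%, against 5.60% of all genes, 3.45% lower), a share near the background. The median there was -0.14. An unadjusted limma p below 0.05 was found for 19 of 75 members and for 2371 of the 11447 kept genes.

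In hearts labelled MuRF1 Tg+, 12 members fell and 3 rose above the tie (20.0%, against 15.3%, of which 6.94% higher), with a median of -0.22. Below the tie 41 fell and 5 rose (61.3%, against 32.5%), with a median of -0.40. Read by direction, 54.7% of members fell there, against 17.1% of all genes, and 6.67% rose, against 15.3%. Above the tie the members that fell were 16.0% in each genotype, against 7.30% of all genes in wild-type and 8.41% in MuRF1 Tg+ hearts. Atrial markers also differed above the tie. Their mean was -1.70 to 0.61 on sham and -0.59 to 4.14 on I/R arrays of wild-type hearts. In MuRF1 Tg+ hearts it was -1.93 to 1.88 and 2.63 to 2.68. The part of atrial tissue in these differences was not tested.

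Weak arrays bear on these counts. Without them, 24 members fell and 1 rose in wild type above (background 12.9%), where 1 I/R array is left, and 5 fell and 2 rose in wild type below (11.8%). In MuRF1 Tg+ above, whose own arrays are all kept, 37 fell and 7 rose (41.7%), and in MuRF1 Tg+ below, with 1 I/R array left, 19 fell and none rose (13.5%). Of the 46 members that had passed in MuRF1 Tg+ below, 18 still did, and the median moved from -0.40 to -0.18. In wild type below the median moved from -0.14 to -0.01, and in wild type above from -0.18 to -0.30.

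The arrays lay on 7 slides. With slide as a block, 1 member fell in wild type above (background 2.26%), none in wild type below (0.218%), 3 in MuRF1 Tg+ above (3.17%) and 5 in MuRF1 Tg+ below (2.1%), and no member rose. Within a slide, 1 I/R array could be set against 1 sham array per comparison. On these, 33 of 75 members were lower in wild type above (median 0.08), 37 in wild type below (0.01), 52 in MuRF1 Tg+ above (-0.18) and 60 in MuRF1 Tg+ below (-0.43). The I/R arrays of the first and last of these pairs were weak.

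**Figure D2:**
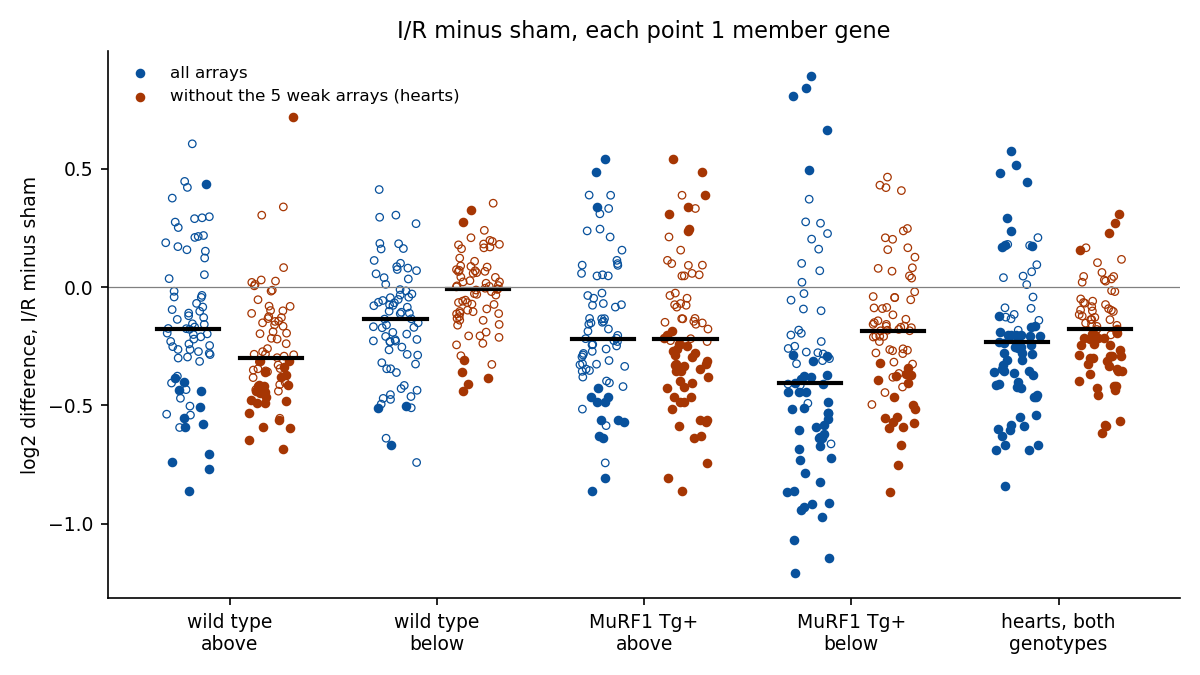
Log2 difference I/R minus sham (vertical axis) of each member in the 4 comparisons by genotype and piece and over whole hearts; blue points use all arrays, brown points leave out the 5 weak arrays (for hearts, each heart with a weak array), filled points passed the threshold and black bars are medians. Blue medians are -0.18, -0.14, -0.22, -0.40 and -0.23 from left to right, and brown medians -0.30, -0.01, -0.22, -0.18 and -0.18.

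The 2 pieces of a heart are not independent, so the pieces were also averaged per heart and both genotypes were tested together, 6 I/R hearts against 6 sham hearts. In that comparison, 50 members fell and 9 rose (78.7%, against 51.0% of all genes), with a median of -0.23. By direction, 25.5% of all genes fell. Leaving out every heart with a weak array left 35 members that fell and 4 that rose (background 32.0%), of which 35 were among the 59 that had passed. Only 2 of the 6 I/R hearts, 1 per genotype, remain in that comparison.

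Both subunits and both evolutionary classes took part. Over whole hearts, where 25.5% of all genes fell and 25.5% rose, 31 of 48 large-subunit genes fell and 6 rose, with a median of -0.23. Of 26 small-subunit genes, 18 fell and 3 rose, with a median of -0.22. Members with a bacterial homolog fell in 32 of 46 cases (median -0.24), and those found only in mitochondria in 17 of 28 (median -0.21). Below the tie of MuRF1 Tg+ hearts, 28 of 48 large-subunit and 12 of 26 small-subunit genes fell, against 17.1% of all genes. The difference between subunits or classes was not tested.

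Mrps9, Mrpl18 and Mrpl19 fell in all 4 comparisons of I/R with sham. Mrps9 encodes a small-subunit protein with a bacterial homolog. Above the tie in wild-type hearts its ratio was 1.20, 1.13 and 1.11 on sham arrays and 0.26, 0.09 and 0.50 on I/R arrays. Below the tie it was 1.27, 1.13 and 1.26 after sham surgery and 0.04, 0.84 and 0.78 after I/R. In MuRF1 Tg+ hearts the values above the tie were 1.13, 1.10 and 1.15 against 0.61, 0.42 and 0.46. The groups did not overlap in any of these comparisons, and the 0.26, 0.09 and 0.04 came from weak arrays. Below the tie in MuRF1 Tg+ hearts, sham arrays gave 1.27, 1.16 and 1.17 and I/R arrays 0.33, -0.13 and -0.23, the last 2 from weak arrays. The differences were -0.86 ± 0.16 (standard error of the limma fit; adjusted p = 0.00251), -0.67 ± 0.16 (adjusted p = 0.0227), -0.63 ± 0.16 (adjusted p = 0.0156) and -1.21 ± 0.16 (adjusted p = 9.01e-05), in that order. The last is a 2.31-fold lower ratio, and without the weak arrays, which leaves 1 I/R array there, the difference was -0.87.

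Mrpl18 encodes a large-subunit protein of the central protuberance. In wild type above, sham arrays gave 1.29, 1.39 and 1.31 and I/R arrays 1.16, 0.79 and 0.74. In wild type below the values were 1.39, 1.22 and 1.35 against 0.67, 0.90 and 0.85. The I/R arrays lay below the sham arrays in both. In MuRF1 Tg+ above they were 1.22, 1.16 and 1.10 against 0.54, 0.58 and 0.67, and in MuRF1 Tg+ below 1.22, 1.17 and 1.19 against 0.60, 0.22 and 0.03. The limma differences were -0.43 ± 0.12 (adjusted p = 0.0225), -0.51 ± 0.12 (adjusted p = 0.0175), -0.56 ± 0.12 (adjusted p = 0.00515) and -0.91 ± 0.12 (adjusted p = 7.52e-05). Without the weak arrays they ran from -0.59 to -0.44, so the spread between groups was narrower.

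Mrpl19, another large-subunit protein with a bacterial homolog, was well above background on 21 of the 24 arrays. It had sham values of 0.86 to 1.06 over all 12 arrays (median 0.93) and I/R values of -0.18 to 0.65 (median 0.21), with no overlap. Its limma differences were -0.77 ± 0.13 in wild type above (adjusted p = 0.00121), -0.50 ± 0.13 in wild type below (adjusted p = 0.0332), -0.56 ± 0.13 in MuRF1 Tg+ above (adjusted p = 0.00931) and -0.92 ± 0.13 in MuRF1 Tg+ below (adjusted p = 0.000148).

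Another 4 members fell in 3 of the 4 comparisons, all but wild type below: Mrps14 and Mrps2, small-subunit proteins with bacterial homologs, and Mrpl39 and Mrpl50, large-subunit proteins found only in mitochondria. Mrps14 ranged from 1.13 to 1.60 on sham arrays and from 0.22 to 1.05 on I/R arrays, with no overlap. Its difference in MuRF1 Tg+ above, a comparison with no weak array but with higher atrial markers after I/R, was -0.81 ± 0.14 (limma, adjusted p = 0.00169). Sham values there were 1.58, 1.29 and 1.43 and I/R values 0.73, 0.60 and 0.56. Mrps2 ranged from 0.14 to 0.32 after sham surgery and from -0.31 to 0.03 after I/R, again with no overlap, and was well above background on 20 arrays. Mrpl39 ran from 0.73 to 1.15 and from -0.21 to 0.85, and Mrpl50 from 0.88 to 1.01 and from -0.04 to 0.89, so both overlapped slightly.

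A further 9 members fell in 2 of the 4 comparisons: Mrpl3, Mrpl21, Mrpl27, Mrpl37, Mrpl46, Mrpl47, Mrps15, Mrps17 and Mrps35. The difference of Mrps35, a small-subunit protein, in wild type above was -0.74 ± 0.19 (limma, adjusted p = 0.0144), and that of Mrpl37, a large-subunit protein, in MuRF1 Tg+ above -0.64 ± 0.17 (adjusted p = 0.0172). In all, 7 members had every I/R array below every sham array: Mrps9, Mrpl19, Mrps14, Mrps2, Mrpl27, Mrps31 and Mrps35 (2.75% of all genes did). No member had every I/R array above every sham array (2.4% of all genes did). Mrps31 and Mrps21 had the largest falls after Mrps9 in MuRF1 Tg+ below, -1.15 ± 0.22 (limma, adjusted p = 0.00124) and -1.07 ± 0.26 (adjusted p = 0.00617). The I/R values of Mrps31 there were 0.77, -0.15 and -0.10, the last 2 from weak arrays, against 1.31, 1.30 and 1.36 after sham surgery. Without the weak arrays, which leaves 1 I/R array there, its difference was -0.55. In none of the 4 comparisons did 27 of the 75 members pass, and no member fell in one comparison and rose in another.

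**Figure D3:**
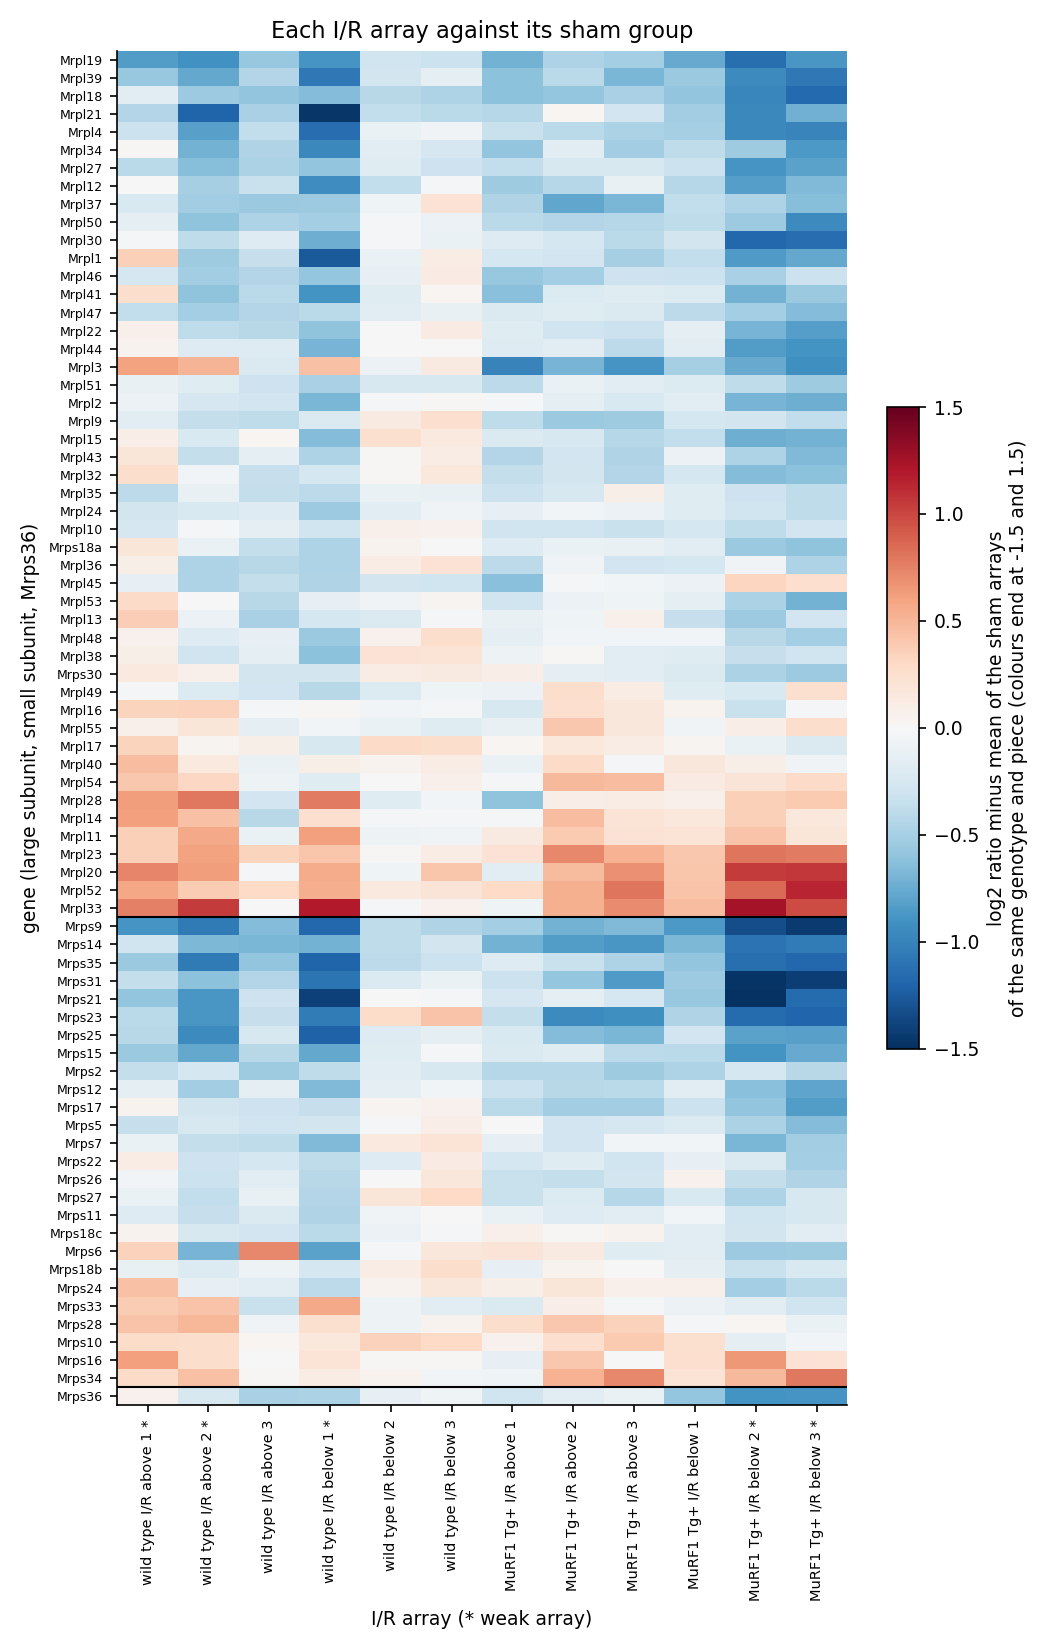
Each member (rows, grouped as large subunit, small subunit and Mrps36) on each of the 12 I/R arrays (columns, weak arrays with an asterisk), as its log2 ratio minus the mean of the 3 sham arrays of the same genotype and piece; blue is lower, red higher, and colours end at -1.5 and 1.5. Between 35 and 66 of the 75 members are below their sham mean on an array, fewest on wild type I/R above replicate 1 and below replicate 3.

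Against this direction, Mrpl23 rose in 3 of the 4 comparisons and Mrpl52 in 2. Mrpl23 encodes a large-subunit protein at the exit of the peptide tunnel. Its ratio in wild type above was 0.70, 0.55 and 0.49 after sham surgery and 0.94, 1.19 and 0.92 after I/R. In MuRF1 Tg+ above it was 0.19, 0.48 and 0.33 against 0.55, 1.05 and 0.85, and in MuRF1 Tg+ below 0.27, 0.44 and 0.48 against 0.80, 1.20 and 1.17. The I/R arrays lay above the sham arrays in all of these, by 0.44 ± 0.14 (limma, adjusted p = 0.0401), 0.49 ± 0.14 (adjusted p = 0.0221) and 0.66 ± 0.14 (adjusted p = 0.00189). The 0.94 and 1.19 of wild type above and the 1.20 and 1.17 of MuRF1 Tg+ below came from weak arrays. In wild type below, sham values of 0.78, 0.58 and 0.71 overlapped I/R values of 1.11, 0.71 and 0.80, the 1.11 from a weak array. Mrpl52, a large-subunit protein found only in mitochondria, rose by 0.54 ± 0.15 in MuRF1 Tg+ above (adjusted p = 0.0209) and by 0.81 ± 0.15 in MuRF1 Tg+ below (adjusted p = 0.000938). Its I/R values in MuRF1 Tg+ below were 0.25, 0.66 and 0.97, the last 2 from weak arrays.

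Mrpl33, Mrpl20 and Mrps34 rose in MuRF1 Tg+ below, and Mrps28 in MuRF1 Tg+ above by 0.34 ± 0.11 (limma, adjusted p = 0.0461). Mrpl33 had the largest rise, 0.89 ± 0.28 (adjusted p = 0.0222), from sham values of 0.92, 0.71 and 0.83 to I/R values of 1.29, 2.07 and 1.79. Its highest values in wild-type hearts were also on weak arrays, 1.57 and 1.86 above the tie and 2.00 below it, beside 0.83, 0.79 and 0.87 on the other I/R arrays. Without the weak arrays its differences in wild type were 0.01 and 0.02. Mrpl20 rose by 0.84 ± 0.22 (adjusted p = 0.00919). Its difference without the weak arrays, with a single I/R array left, was 0.42 and did not pass.

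The chosen probes of 14 members hold AATAAA or ATTAAA, the letters of the poly(A) signal, among them those of Mrpl23, Mrpl52 and Mrpl20. Whether a match lies at the end of the transcript was not checked. In MuRF1 Tg+ below, 3 of these 14 rose and 3 fell (median -0.15), while of the other 61 members 2 rose and 38 fell (median -0.44). Over all kept genes the median difference there was 0.18 for the 1019 whose probe holds either hexamer and -0.01 for the rest. In wild type above the medians were -0.07 and -0.20 for members, and 0.14 and -0.01 for all genes. Holding the hexamer went with a higher difference in this way, among members and among all genes, and its part in the rises was not tested.

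Probes of 1 gene did not always give the same sign. Of 24 members with at least 2 probes above background, signs differed in 5 in wild type above, 9 in wild type below and 4 in each MuRF1 Tg+ comparison. Mrpl28, a large-subunit protein, differed by 0.28 in MuRF1 Tg+ below by its brightest probe and by -0.99 by its second. Mrpl40, another large-subunit protein, differed by 0.07 by its brightest probe, which holds the hexamer, and by -0.49 by its second, which does not. The brightest probe gave the higher difference in 66.7% of the 24 members there, against 56.1% of 3160 genes with 2 such probes. With the mean of all probes of a gene, an alternative chosen after the data were seen, 135 of 142 calls were kept. For a member with 1 probe above background that mean is the same probe, so only the 24 members could change in value.

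No genotype difference passed in sham hearts. No member passed between MuRF1 Tg+ and wild type in either piece after sham surgery. The background was 0.0349% above and 0.0262% below (0.0175% and 0.00874% lower). In each piece 1 member had an unadjusted limma p below 0.05, as did 231 of the 11447 kept genes above and 164 below. For each gene the fit shares 1 spread over all groups, and the median SD was 0.0741 within sham groups and 0.214 within I/R groups. Standard errors of sham comparisons thus reflect the I/R arrays too. The members with the smallest p were Mrps28 (-0.28 ± 0.11) and Mrps18c (-0.20 ± 0.10) above the tie and Mrpl23 (-0.29 ± 0.14) and Mrpl24 (-0.17 ± 0.09) below it.

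After I/R, 1 member was lower in hearts labelled MuRF1 Tg+ than in wild-type hearts above the tie (1.33%, against 0.655% of all genes, 0.253% higher and 0.402% lower) and 5 below it (6.67%, against 2.94%, 1.71% lower), and none was higher. Mrpl3 passed in both pieces, at -0.98 ± 0.19 (limma, adjusted p = 0.0282) and -0.81 ± 0.19 (adjusted p = 0.0331). Without the weak arrays, which leaves 1 wild-type I/R array above the tie, Mrpl3 did not pass there. That array read 0.64, beside 1.46 and 1.37 on the weak arrays. Below the tie, Mrps36 (-0.65 ± 0.12, adjusted p = 0.0152), Mrpl18 (-0.53 ± 0.12, adjusted p = 0.0308), Mrps17 (-0.50 ± 0.12, adjusted p = 0.0379) and Mrpl47 (-0.37 ± 0.09, adjusted p = 0.0331) passed too. Weak arrays stood in 3 of the 4 I/R groups. Without them 13 members were lower below the tie (background 7.73%), of which 2, Mrps17 and Mrps36, were among the 5. With slide as a block, none of the 5 passed.

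Whether I/R acted differently in the genotypes was tested by the interaction, and no member passed in either piece (background 0.0175% in both). At an unadjusted limma p below 0.05, 1 member stood above the tie and 18 below it, beside 949 and 1200 of the 11447 kept genes. The median member interaction below the tie was -0.25, with 61 of 75 members negative, and above the tie -0.03 with 41 negative. A single array decided the count below the tie: without replicate 1 of wild type I/R below, a weak array with low member values, 28 members passed, 26 negative and 2 positive, while 17.9% of all genes passed. Without the same array, 50 members were lower and 2 higher in MuRF1 Tg+ than in wild type after I/R below the tie (background 45.8%), and 13 were higher below than above the tie in wild-type I/R hearts (background 12.6%). The background rose with each of these counts. Without all 5 weak arrays no member passed the interaction in either piece. So the excess of calls in MuRF1 Tg+ below over wild type below is a difference in counts, and the test of that difference was not passed.

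Mrpl3 had the smallest interaction p of all members in both pieces, -1.16 ± 0.27 above the tie (limma, adjusted p = 0.221) and -0.89 ± 0.27 below it (adjusted p = 0.330). By its brightest probe, wild-type hearts gave 0.54, 0.93 and 1.10 after sham surgery and 1.46, 1.37 and 0.64 after I/R above the tie. Below it they gave 0.75, 0.93 and 0.83 against 1.28, 0.75 and 0.97. The values of 1.46, 1.37 and 1.28 were on weak arrays. MuRF1 Tg+ hearts gave 1.15, 0.82 and 1.14 against 0.04, 0.34 and 0.16 above the tie, and 1.03, 0.84 and 0.89 against 0.42, 0.16 and 0.00 below it. Mrpl3 thus fell in MuRF1 Tg+ hearts in both pieces without overlap, by 0.86 ± 0.19 (limma, adjusted p = 0.00612) and 0.72 ± 0.19 (adjusted p = 0.00841) on the log2 scale. In wild type the differences were 0.30 ± 0.19 and 0.16 ± 0.19.

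The other probes of Mrpl3 shared the fall in MuRF1 Tg+ hearts but not the direction in wild type. The second probe differed by -0.82 ± 0.14 and -1.03 ± 0.14 in MuRF1 Tg+ hearts (limma, adjusted p = 0.00141 and 0.000101) and by -0.35 ± 0.14 and -0.17 ± 0.14 in wild-type hearts. For the intron-spanning probe the differences were -1.18 ± 0.28 and -1.01 ± 0.28 in MuRF1 Tg+ (adjusted p = 0.00893 and 0.0111) and -0.52 ± 0.28 and -0.31 ± 0.28 in wild type. On the weak arrays of wild type I/R above, where the brightest probe read 1.46 and 1.37, the second read 0.51 and 0.30 and the intron-spanning probe 0.64 and 0.09. The interaction of these 2 probes was -0.47 and -0.66 above the tie and -0.86 and -0.70 below it, and neither passed after adjustment. Between genotypes after I/R, the second probe passed below the tie (-0.82 ± 0.14, adjusted p = 0.0106) and not above it (-0.42 ± 0.14, adjusted p = 0.171). The intron-spanning probe passed in neither (adjusted p = 0.607 above and 0.135 below).

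**Figure D4:**
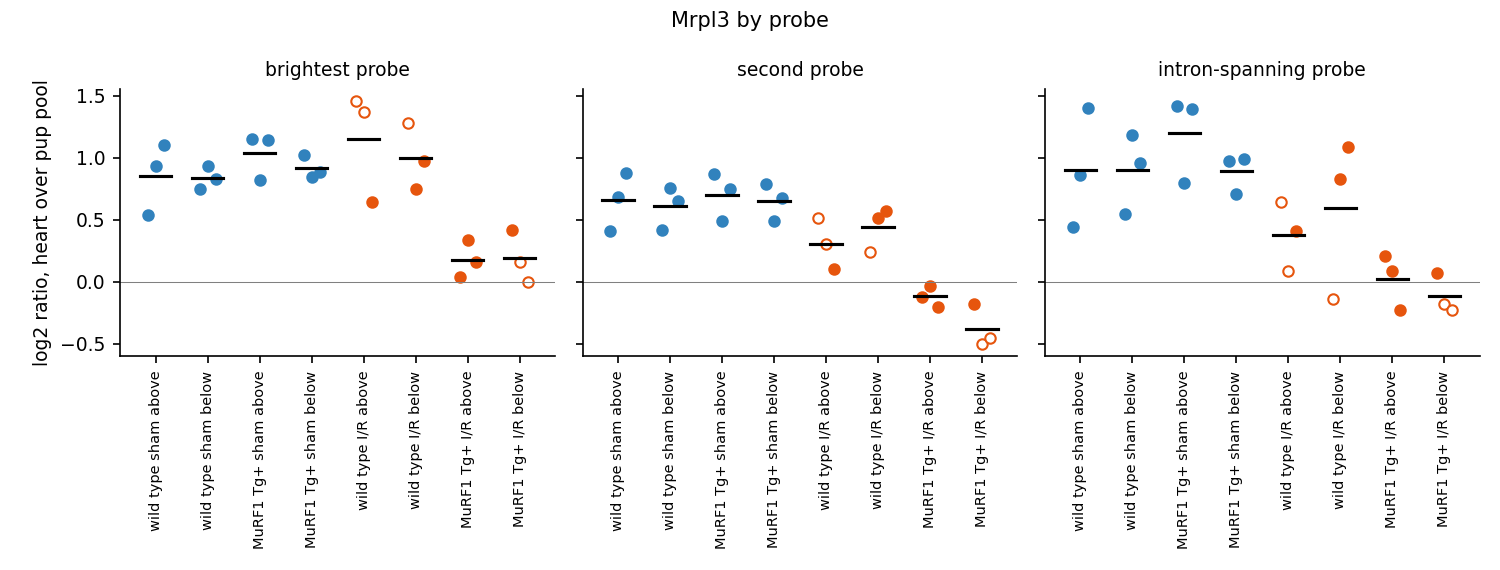
Log2 ratio of heart to pup pool (vertical axis) for the 3 probes of Mrpl3 on every array, by group; blue is sham, orange I/R, open points are weak arrays and bars are group means. In MuRF1 Tg+ I/R hearts all 3 probes lie below their sham arrays, and in wild-type I/R hearts the brightest probe reads 1.46, 1.37 and 1.28 on the weak arrays while the other probes read 0.64 or less there.

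No difference between the pieces passed. Below minus above, no member passed in sham hearts or I/R hearts of either genotype (background 0 in both sham comparisons, 0.0175% in wild-type I/R and 0.48% in MuRF1 Tg+ I/R, 0.236% higher and 0.245% lower). At an unadjusted limma p below 0.05 the counts were 0, 0, 1 and 26 members, beside 15, 107, 748 and 2589 of the 11447 kept genes. In MuRF1 Tg+ I/R, the last of these, 60 of 75 members were lower below the tie and the median was -0.20. The smallest p there belonged to Mrps36 (-0.54 ± 0.12, adjusted p = 0.0517) and Mrpl47 (-0.32 ± 0.09, adjusted p = 0.0915), and in wild-type I/R to Mrps18b (0.23 ± 0.10) and Mrps28 (-0.23 ± 0.11). In sham hearts they belonged to Mrps18c (-0.10 ± 0.10) and Mrpl47 (-0.08 ± 0.09) in wild type, and to Mrpl9 (-0.23 ± 0.13) and Mrps28 (0.17 ± 0.11) in MuRF1 Tg+. With the heart as a random block (the paired fit), 1 member passed in MuRF1 Tg+ I/R. The interaction of piece and surgery passed for no member in either genotype (background 0 in both). Its unadjusted limma p was below 0.05 for 0 members in wild type and 8 in MuRF1 Tg+, beside 206 and 714 of the kept genes. In MuRF1 Tg+ the interaction was led by Mrps36 (-0.60 ± 0.17) and Mrpl47 (-0.31 ± 0.12). In wild type it was led by Mrpl9 (0.36 ± 0.18) and Mrpl47 (0.21 ± 0.12).

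The other genes of mitochondrial protein synthesis were described by lists, also chosen with earlier results of these data known. Over whole hearts, 14 of 15 translation factors fell after I/R and none rose, with a median of -0.31, beside -0.23 for the members and 0.00 for all genes. In that comparison 25.5% of all genes fell and 25.5% rose. Among the translation factors that fell were Gfm1, the elongation factor that moves the ribosome along (-0.98 ± 0.13, limma, adjusted p = 0.000190), Tsfm, which recharges the factor that brings tRNA (-0.64 ± 0.08, adjusted p = 0.000123), and Tufm, that factor itself (-0.41 ± 0.06, adjusted p = 0.000355). Of 20 factors that assemble the mitochondrial ribosome, 13 fell and none rose (median -0.23), among them Mtg1, a GTPase of large-subunit assembly (-0.52 ± 0.08, adjusted p = 0.000391). Of 19 genes that charge mitochondrial tRNAs, 13 fell and 2 rose (median -0.23), led by Qrsl1, a subunit of the enzyme that makes glutaminyl-tRNA in mitochondria (-0.74 ± 0.08, adjusted p = 7.56e-05). Mitoribosome proteins whose array names fall outside the rule were mixed, with 3 of 7 higher and 2 lower. Those were Mrp63 (0.40 ± 0.08, adjusted p = 0.00213), Dap3 (0.30 ± 0.08, adjusted p = 0.0108) and Aurkaip1 (0.26 ± 0.07, adjusted p = 0.00703), and the array's names for Ptcd3, 2810422B04Rik (-0.68 ± 0.08, adjusted p = 0.000137), and for Mrpl42, D10Ertd322e (-0.41 ± 0.06, adjusted p = 0.000428).

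The products of the mitochondrial ribosome join nuclear-encoded subunits. Of 79 nuclear genes for respiratory chain and ATP synthase subunits, 20 rose and 19 fell over whole hearts, with a median of 0.14. These shares, 25.3% and 24.1%, are near the background of 25.5% in each direction. In MuRF1 Tg+ below, 21 of the 79 fell and 4 rose, a median of 0.00, beside 41 falls and 5 rises among the 75 members. Of all genes, 17.1% fell and 15.3% rose there. Among genes for cytosolic ribosomal proteins, 72 of 78 rose over whole hearts and 1 fell, with a median of 0.76, and 65 rose in MuRF1 Tg+ below. Their mean ratio was -1.26 to -0.93 on sham arrays and -0.91 to 0.52 on I/R arrays, and its highest 5 values were on the weak arrays. The difference between these families was not tested, and their values come from the same arrays.

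**Figure D5:**
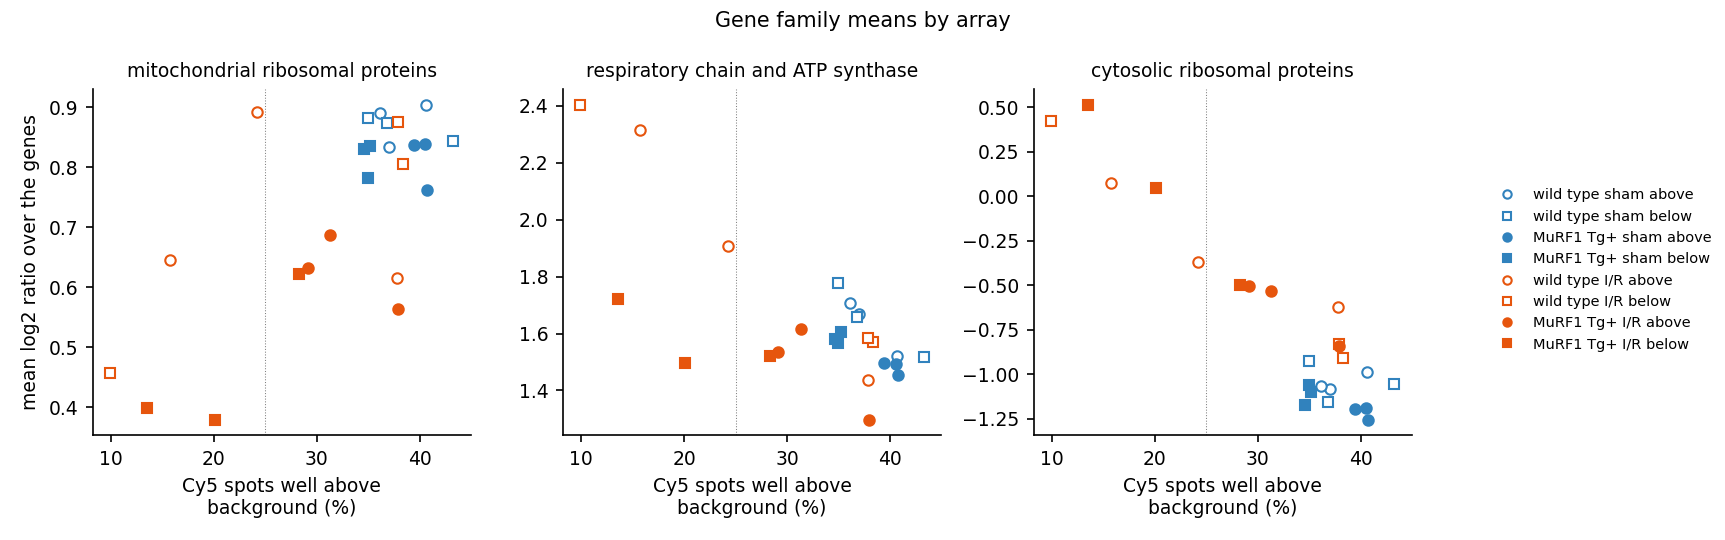
Mean log2 ratio over the 75 mitochondrial ribosomal protein genes, 79 respiratory chain and ATP synthase genes and 78 cytosolic ribosomal protein genes (vertical axes, which differ in range and do not start at 0), against the percent of heart-channel spots well above background (horizontal axis), 1 point per array; symbols give genotype, surgery and piece, and the dotted line marks 25%. Member means are lowest on 3 of the 5 weak arrays, and I/R arrays right of the line run from 0.56 to 0.88.

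Among I/R arrays that were not weak, the member mean was 0.56, 0.69 and 0.63 in MuRF1 Tg+ above, 0.62 in MuRF1 Tg+ below, 0.62 in wild type above, and 0.80 and 0.88 in wild type below, beside 0.76 to 0.90 on sham arrays. The 5 arrays from the first 3 of these groups lay below every sham array, and the pair from wild type below did not. Neutrophil markers on those arrays averaged -1.28 to -0.00, and atrial markers reached 2.63 to 4.14 on the arrays from above the tie. The part of these cells in the members' values was not tested.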

How the data were processed

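Each of 24 samples of heart RNA shared an Agilent two-colour array with the pup pool, 50 ng of RNA per labelling per the labels. Per the file headers, Feature Extraction 9.5.3.1 read the scans, and the deposited intensity columns used were the mean signal and the local background median of each spot. The authors' files also hold Agilent's log10 ratio, red over green, per the file headers. The deposited series table holds log2 ratios that correlated at 0.986 or more with those. The sources used here do not give its centring. A labelling text names Cy3-CTP for heart RNA, while the label fields name Cy5, which was used.

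Background was corrected with normexp (offset 50, which understates changes of dim genes) and ratios were loess-normalised within arrays in limma 3.58.1 under R 4.3.3. Of 41174 probes, 1 per array gene name was used. All 24 arrays entered 1 limma fit of 8 group means, which left 16 degrees of freedom. The comparisons were I/R with sham, MuRF1 Tg+ with wild type and below with above, each within the other factors, both interactions, and I/R with sham over heart means of both genotypes (8 degrees of freedom). P-values measure the spread between these arrays and were adjusted within each of 17 comparisons. Alternatives were Agilent's log ratio, the series table, the Cy5 channel alone, no background correction, no filter, slide or heart as a block, fewer arrays and the mean of all probes. The fit was tested on simulated data. Values after ± are standard errors of the fit.

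Pieces with the same number were taken to come from 1 heart, since the labels give 2 pieces per heart. Their deviations from group means correlated between -0.73 and 0.54, above 0.1 in 8 of 12 hearts.

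The members, gene lists and motifs were chosen with earlier results of these data known. Members were named if they passed in at least 2 comparisons of I/R with sham, were among the 3 largest changes either way in a comparison, or, where none passed, were among the 2 with the smallest p. Lists are described by counts and medians.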

Additional observations from a re-analysis of the deposited data

How the results depend on the processing

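Of 167 alternative counts, 128 were within 1.5 times the main count. A main count of 0 that stayed at 0 was taken as within, so the 128 overstate how stable the other counts were. Counts are of members past the threshold, in the order wild type above, wild type below, MuRF1 Tg+ above and MuRF1 Tg+ below for I/R minus sham (13, 3, 15 and 46 in the fit of all arrays). Agilent's log ratio gave 3, 0 and 3 in the first 3, and so did the series table. The Cy5 channel alone gave 8 in wild type above and 8 in MuRF1 Tg+ above. Slide as a block gave 1, 0, 3 and 5, for which the shares of all genes are given above. Leaving out the weak arrays gave 25, 7, 44 and 19, and the lone array left in 2 groups was assumed to vary like the others. Only the arrays of the comparison in the fit gave 7, 0 and 32 in the first 3. The mean of all probes of a gene, chosen after the data were seen, gave 5 in wild type below.

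Over heart means the count of 59 became 39 with Agilent's log ratio, 39 with the series table and 39 without hearts that hold a weak array. For MuRF1 Tg+ minus wild type after I/R below the tie, the count of 5 became 10 with Agilent's log ratio or the series table, 17 with the Cy5 channel alone, 1 with no filter on dim probes, 0 with slide as a block, 13 without the weak arrays and 0 with only the arrays of the comparison. Above the tie the count of 1 became 0 with Agilent's log ratio, the series table, the Cy5 channel alone, only the arrays of the comparison, and the mean of all probes. The call of Mrpl3 there was also lost without the weak arrays. Below minus above in MuRF1 Tg+ I/R hearts went from 0 to 1 with no background correction and to 1 with the replicate block, in which the heart is a random block (correlation 0.0766). The block changed no other count by more than 1.5 times. Without the weak arrays, below minus above in wild-type I/R hearts went from 0 to 5 and the piece by surgery interaction in wild type from 0 to 2.

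Leaving out 1 array at a time gave 5 to 20 members in wild type above, 0 to 9 in wild type below, 5 to 14 in MuRF1 Tg+ above and 21 to 54 in MuRF1 Tg+ below for I/R minus sham, and leaving out 1 heart gave 50 to 65 over heart means. The share of all genes that passed moved with these counts. At the lowest and highest count it was 6.68% and 19.1%, 2.45% and 6.23%, 6.33% and 16.9%, 16.5% and 41.9%, and over heart means 43.2% and 58.7%. Leaving out 1 array gave 0 to 6 above and 0 to 52 below the tie for MuRF1 Tg+ minus wild type after I/R, 0 to 1 above and 0 to 28 below for the genotype by surgery interaction, and 0 to 13 in wild type and 0 to 23 in MuRF1 Tg+ for below minus above after I/R. The other counts stayed at 0. Among others, the lowest and highest counts came without replicates 2 and 3 of wild type I/R above in wild type above, sham replicate 1 and I/R replicate 3 of wild type below, sham replicate 1 and I/R replicate 1 of MuRF1 Tg+ above, and I/R replicates 2 and 1 of MuRF1 Tg+ below. The 6 above the tie came without wild type I/R above replicate 3 (4.41% of all genes passed). The 52, 28 and 13 came without wild type I/R below replicate 1 (45.8%, 17.9% and 12.6% of all genes passed there). The 23 came without MuRF1 Tg+ I/R below replicate 1 (13.1%).

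Of 142 single calls, 79 were kept with Agilent's log ratio, 101 with the Cy5 channel, 133 with no background correction, 117 with no filter, 84 without the weak arrays and 135 with the mean of all probes. The last of these leaves members with a single probe above background unchanged in value. With slide as a block 10 of 83 were kept and with the replicate block 81 of 83. Over heart means, Mrps18c turned from -0.12 to 0.093 with Agilent's log ratio and to 0.093 with the series table, and Mrpl11 from 0.24 to -0.026 with the Cy5 channel alone. Why these calls turned was not tested. Under every alternative and every array left out, the calls kept were Mrpl19 in wild type above, Mrpl18 and Mrps14 in MuRF1 Tg+ above, and Mrpl18, Mrpl19, Mrps14, Mrps36 and Mrps9 in MuRF1 Tg+ below. Over heart means, neither block nor the fit of only the arrays of the comparison was run, and hearts rather than arrays were left out. The 25 calls kept under the alternatives that were run there included Mrps9, Mrpl18, Mrpl19, Mrps14, Mrpl23 and Mrpl52.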
